A study of Mus musculus with 3 samples.

Results

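A group of 362 cells of the mouse caput epididymis is described here, among 14845 cells of the whole epididymis. Of 4 gene panels, that of Lypd8, Ppy, Defb15 and C1qtnf9 exceeded its caput mean by the largest fold in these cells. They are called Lypd8 panel cells after their most abundant panel gene. Cells were taken from the caput library where they had at least 2000 unique molecular identifiers (UMIs, counted RNA molecules) and at most 2 UMIs in sum of Krt5, Foxi1, Ptprc, Pecam1 and Dcn, which mark basal, clear, immune, endothelial and stromal cells. Of 4961 caput cells, 4843 met the first condition and 2801 met both. In each cell the UMIs of a panel per 10000 UMIs were divided by their mean over all caput cells, giving a panel fold, and a cell was a Lypd8 panel cell where that fold was the largest of the 4 and at least 1. The 362 cells were 12.9% of the 2801 (exact 95% interval 11.7% to 14.2%). By the same reading, 415 cells (14.8%) belonged to the Defb47 panel (Defb47, Defb18, Spink13, Serpinf2), 1080 (38.6%) to the Cst12 panel (Cst12, Adam28, Defb48, Teddm2, Ly6g5b) and 294 (10.5%) to the Lcn5 panel (Ntsr2, Mbnl3, Rnase13, Lcn5, Muc5b, Defb30). The other 650 (23.2%) reached a fold of 1 in no panel.

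The epididymis is the coiled duct in which sperm leaving the testis mature, and its caput begins with the initial segment. The lining consists mainly of principal cells, which reabsorb fluid and secrete proteins onto sperm, and each stretch of the duct makes its own set of defensins, lipocalins, cystatins and protease inhibitors. In the initial segment, factors that arrive from the testis in the luminal fluid act on receptors such as ROS1 and on FGF and ERK signalling, and keep a segment-specific program going that includes the ETS factors Etv1, Etv4 and Etv5, the serine protease Ovch2 and several lipocalins and cystatins.

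Single-cell RNA sequencing was done on caput, corpus and cauda of untreated wild-type C57BL/6 mice 56 days old, with 1 library per region. The sources used here do not give the number of mice or say whether tissue was pooled. The libraries held 41500792 UMIs in 4961 caput cells, 21495211 in 4959 corpus cells and 18341476 in 4925 cauda cells. The Lypd8 panel cells held 2943516 UMIs, with a median of 5523 per cell (2013 to 65225) and 1924 detected genes, against 6507 UMIs and 1996 genes in the 1789 cells of the other 3 panels. Their median mitochondrial share was 4.86%, against 4.73% in those cells, and none of them exceeded 20%. There was no replicate of any region, so no test was made. Intervals are exact at 95%, for counting error alone, and differences are between cells of 1 library. Of the caput barcodes, 14 also occurred in the corpus library, none of them a Lypd8 panel cell, and 21 in the cauda library, 1 of them a Lypd8 panel cell.

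The panel genes that chose the cells were mostly Lypd8 and Defb15, while Ppy and C1qtnf9 added few molecules. Lypd8, a Ly6 family surface protein known from the mouse colon, where it keeps motile bacteria off the mucosa, gave 14217 of the panel's UMIs, Defb15, a beta-defensin, 6546, Ppy, the pancreatic polypeptide hormone of the islets, 412, and C1qtnf9, a secreted C1q and TNF related protein, 310. In CPM (UMIs of a gene per 1000000 UMIs, summed over the cells of a group), Lypd8 reached 4829.9 (4751 to 4910.0) in Lypd8 panel cells, against 606 in Defb47 panel, 74.7 in Cst12 panel and 126 in Lcn5 panel cells. Defb15 did not separate the Lypd8 panel cells from Lcn5 panel cells. It had 2224 CPM (2170.3 to 2278) in Lypd8 panel and 1965 CPM (1912 to 2020.3) in Lcn5 panel cells. Defb47 panel and Cst12 panel cells had 71.6 and 43.9 CPM. C1qtnf9 was shared with the Defb47 panel instead, at 105 CPM (93.9 to 118) in Lypd8 panel and 51.6 CPM (44.4 to 59.5) in Defb47 panel cells, against 1.95 in Cst12 panel and 3.10 in Lcn5 panel cells. Ppy had 140.0 CPM (127 to 154) in Lypd8 panel cells and 24.5, 0.877 and 11.2 CPM in Defb47, Cst12 and Lcn5 panel cells. The rule compares each panel with its own caput mean, so panel genes of other cells could be as abundant: Defb18, a beta-defensin of the Defb47 panel, was at 6162 CPM in Lypd8 panel cells and 9329 CPM in Defb47 panel cells. These values chose the cells and are given as a description.

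Panel transcripts were hardly found outside the caput. Among cells of the same filters, Lypd8 was at 0.593 CPM in 1817 corpus cells and 0.866 CPM in 259 cauda cells, which is 6 UMIs and 1 UMI. Ppy had no UMI in either, which allows up to 0.297 CPM in corpus and 2.60 CPM in cauda at 3 counts. Defb15 had 24.2 CPM (21.3 to 27.4) in corpus and 0.866 CPM in cauda. No corpus and no cauda cell met the Lypd8 panel rule, which allows a share of up to 0.165% and 1.16% at 3 counts. Region and library cannot be told apart here.

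To set the level of free RNA, 303 caput cells with more than 2 UMIs of Ptprc or Pecam1 in sum were used, immune and endothelial cells that should lack these transcripts. After every cell was thinned to 2000 UMIs, with no cell lost in either group, 98.3% of Lypd8 panel cells had a Lypd8 UMI, against 21.1% of Ptprc or Pecam1 cells, at median depths of 5523 and 6726 UMIs before thinning. Unthinned, the shares were 99.2% and 47.2%. For Defb15 the thinned shares were 75.1% and 17.2% (87.8% and 32.3% unthinned), for Ppy 21.0% and 0.330% (43.9% and 2.64%) and for C1qtnf9 16.6% and 2.64% (42.8% and 9.57%), in the same order of groups. Of the Ptprc or Pecam1 cells, 8.91% would have reached a Lypd8 panel fold of 1. After thinning, Lypd8 was found in 16.6% of Cst12 panel cells (14.4% to 18.9%) and 20.1% of Lcn5 panel cells (15.6% to 25.1%). Both intervals overlap that of the share in Ptprc or Pecam1 cells (16.7% to 26.2%). In Defb47 panel cells the share was 43.9%, above that in Ptprc or Pecam1 cells. Some of the 303 cells were rich in principal cell transcripts. Their 15 principal cell markers had a median of 203 per 10000 UMIs, but 1094 at the 95th percentile. Lypd8 was at 267 CPM in the 303 cells and 74.7 CPM in Cst12 panel cells. The free RNA level given below is that of the 303 cells and may be too high. A level under it is therefore not shown to be background.

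**Figure D1:**
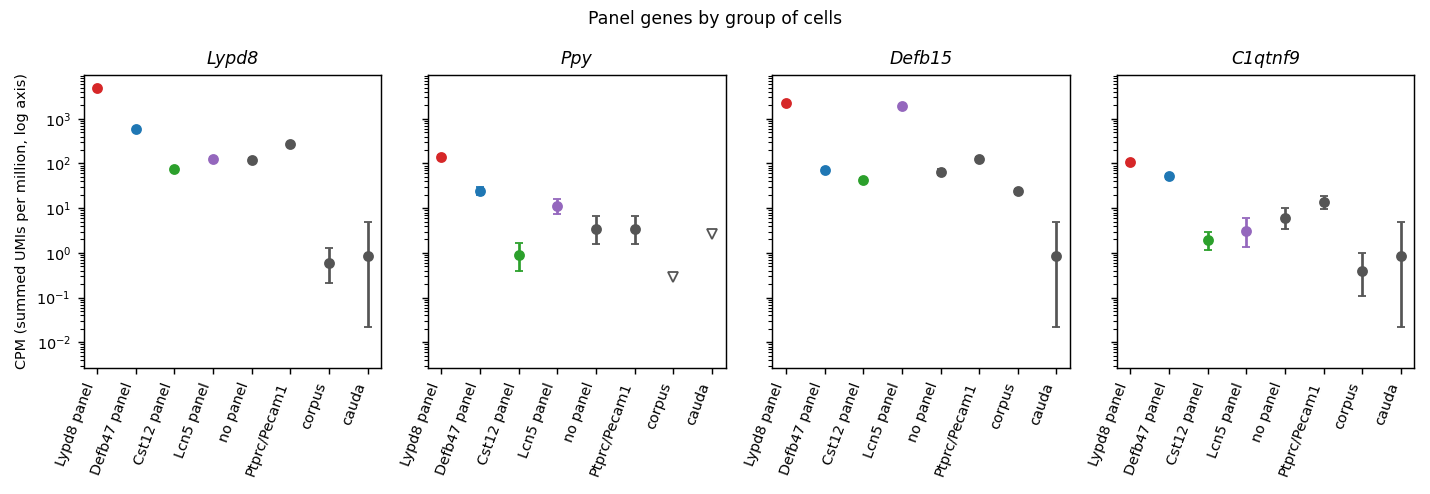
Level of the 4 panel genes in CPM (log axis) in each group of cells, with exact 95% Poisson intervals that cover counting error only; an open triangle is the level that 3 counts would give where no UMI was found. Lypd8 stands at 4829.9 CPM in Lypd8 panel cells and 606 CPM in Defb47 panel cells, whereas Defb15 is near 2000 CPM in both Lypd8 panel and Lcn5 panel cells.

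The promoters of these 4 genes are shown because their transcripts define the cells together. Each line gives the 250 bases before the annotated start, 5′ to 3′ on the gene's strand, from RefSeq on GRCm38.p6, with capitals marking TATAAA and AGAACA, the half-site of androgen response elements, on either strand. The windows are chr11:58378782-58379031 (plus strand) for Lypd8, the first of the gene's annotated starts, chr11:102101320-102101569 (minus) for Ppy, chr8:21932711-21932960 (minus) for Defb15 and chr14:60767884-60768133 (plus) for C1qtnf9.
Lypd8: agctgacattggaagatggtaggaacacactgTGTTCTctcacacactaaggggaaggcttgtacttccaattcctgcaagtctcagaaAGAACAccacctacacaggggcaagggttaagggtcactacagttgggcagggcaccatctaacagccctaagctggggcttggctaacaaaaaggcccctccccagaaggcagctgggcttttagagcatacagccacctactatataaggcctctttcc
Ppy: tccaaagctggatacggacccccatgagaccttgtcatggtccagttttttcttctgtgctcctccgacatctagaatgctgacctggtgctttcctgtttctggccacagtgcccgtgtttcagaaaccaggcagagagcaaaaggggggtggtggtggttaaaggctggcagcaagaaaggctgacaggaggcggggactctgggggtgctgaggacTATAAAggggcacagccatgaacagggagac
Defb15: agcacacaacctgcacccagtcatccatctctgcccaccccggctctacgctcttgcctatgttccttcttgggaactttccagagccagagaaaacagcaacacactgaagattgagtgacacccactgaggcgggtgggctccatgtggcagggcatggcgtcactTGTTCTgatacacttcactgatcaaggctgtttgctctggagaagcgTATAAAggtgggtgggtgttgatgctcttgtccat
C1qtnf9: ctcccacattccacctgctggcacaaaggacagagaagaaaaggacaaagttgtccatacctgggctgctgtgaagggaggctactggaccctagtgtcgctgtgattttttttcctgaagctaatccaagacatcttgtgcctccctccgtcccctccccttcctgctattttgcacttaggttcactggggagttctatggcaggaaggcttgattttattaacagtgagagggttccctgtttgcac

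AGAACA was found in 2 of the 4 promoters, once on the plus strand at -161 and once on the minus strand at -218 in Lypd8, and on the minus strand at -82 in Defb15 (the leftmost base, counted from the start). TATAAA was found at -31 in Ppy and -35 in Defb15, both on the plus strand. Of 32851 mouse promoters of the same length, 16.1% held AGAACA and 12.4% TATAAA on either strand. The ETS motif CCGGAAGT, held by 2.88% of all promoters, was in none of the 4. These matches describe letters in the windows and nothing more.

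Within the 362 cells the panel was uneven. After thinning, 58 cells held 1 panel gene, 212 held 2, 86 held 3 and 6 held all 4. Lypd8 outnumbered Defb15 in 268 cells (74.0%), Defb15 outnumbered Lypd8 in 83 (22.9%) and the counts were equal in 11. Lypd8 had a median of 44.4 UMIs per 10000 (25.1 at the lower and 61.0 at the upper quartile, 116 at most), and 3 cells had no Lypd8 UMI. Defb15 had a median of 12.6 (3.53 and 33.0, at most 96.1), and 44 cells had no Defb15 UMI. Ppy and C1qtnf9 had a median of 0.

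Across the cells Lypd8 and Defb15 leaned towards different panels. The second largest panel fold was that of the Defb47 panel in 227 cells, of the Lcn5 panel in 121 and of the Cst12 panel in 14. Where the Defb47 panel came second, Lypd8 was at 5609 CPM (5503 to 5718) and Defb15 at 1301 CPM (1250.1 to 1354). Where the Lcn5 panel came second, Lypd8 was at 3585 CPM (3466 to 3706) and Defb15 at 4223 CPM (4094 to 4355). In thinned cells (n = 362), Spearman's rho of Defb15 was 0.63 with the sum of the Lcn5 panel and -0.42 with that of the Defb47 panel. The corresponding values of Lypd8 were -0.21 and 0.40, and rho between Lypd8 and Defb15 was -0.13. The cells share 1 library, and a fixed number of UMIs per cell and the panel rule tie these counts to each other, so the correlations are a description. Gpx5, a secreted glutathione peroxidase of the caput that no panel holds, was high in both subsets, with 69601 CPM where the Defb47 panel came second and 62355 CPM where the Lcn5 panel did. The 14 cells with the Cst12 panel second had 35237 CPM of Gpx5 and 13281 CPM of Lcn9, a lipocalin of the initial segment.

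**Figure D2:**
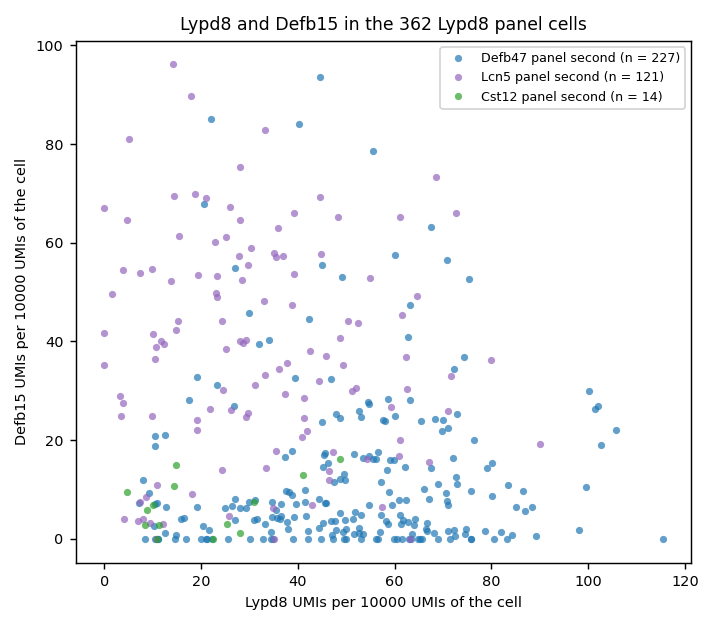
Defb15 against Lypd8 in each of the 362 Lypd8 panel cells, in UMIs per 10000 UMIs of the cell, coloured by the panel with the second largest fold. Cells with the Lcn5 panel second (n = 121) reach high Defb15 values, cells with the Defb47 panel second (n = 227) spread along the Lypd8 axis, and most of the 14 cells with the Cst12 panel second lie low on the Lypd8 axis.

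The rule cut through a gradient at its lower end. The panel fold had a median of 6.35 (4.49 and 8.17 at the quartiles) and reached 13.7. Just inside it, 20 cells lay below 1.5, with a median of 3.5 panel UMIs, and 26 cells in all were chosen on 5 panel UMIs or fewer. Just outside it, 129 cells had the Lypd8 panel as their largest at a fold below 1, the highest at 0.946, and 62 of them reached 0.5. A further 273 cells had a Lypd8 panel fold of at least 1 and a larger fold of another panel, which was the Lcn5 panel in 159, the Defb47 panel in 99 and the Cst12 panel in 15. Inside, the fold of a second panel also reached 1 in 295 cells, and in 40 cells the lead over it was less than 1.5 times. The median lead was 4.01 times. The 33 cells with a fold below 2 differed from the 249 with a fold of at least 5, with 29518 CPM of Gpx5 and 5105 CPM of Lcn9 in those 33, against 68824 and 1385 CPM in the 249, at median depths of 2772 and 7026 UMIs.

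Each panel gene was also read in cells chosen without it. Where the other 3 genes chose the cells, Ppy was at 138 CPM in those 362 cells and 8.03 CPM in cells of the other 3 panels, a ratio of 17.2 (14.1 to 21.1). Chosen without Lypd8, 333 cells had 3846 CPM of Lypd8, against 431 CPM, a ratio of 8.93 (8.67 to 9.21), and 260 of them were among the 362, which is 71.8% of the Lypd8 panel cells. C1qtnf9 had a ratio of 8.07 (6.76 to 9.66) and Defb15 one of 4.61 (4.45 to 4.78). Each gene was higher in cells that the other 3 genes had chosen than in the other 3 panels together, and the removal of Lypd8 exchanged the most cells. The choice without Ppy, like that without C1qtnf9, kept 360 of the 362 cells. Panels were chosen with earlier results of these data known, so these ratios are a description and no test. They also pool panels that differ, as C1qtnf9 was at 51.6 CPM in Defb47 panel cells as first assigned. Defb15 was at 1863 CPM in the 390 cells chosen without it, not above the 1965 CPM of Lcn5 panel cells as first assigned.

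The cells also lay near each other in the rest of the transcriptome. Principal components were taken without the 19 panel genes and the 5 genes of the cell filter. Of the 15 nearest neighbours of a Lypd8 panel cell, 76.6% on average were Lypd8 panel cells, which made up 12.9% of all cells compared, and the median was 93.3%. Another 12.2% were Defb47 panel, 3.61% Lcn5 panel and 2.01% Cst12 panel cells, and 5.60% had no panel. These shares were all below those of the same groups among all cells compared (14.8%, 10.5%, 38.6% and 23.2%). Such grouping was not particular to Lypd8 panel cells. Own-group shares averaged 93.2% for Cst12 panel, 78.9% for Lcn5 panel and 63.0% for Defb47 panel cells, and 86.2% for cells without a panel. At least 12 of the 15 neighbours were Lypd8 panel cells for 247 of the 362, and cells without a panel for 10. On the first 2 components the median Lypd8 panel cell lay between the medians of Lcn5 and Defb47 panel cells. Genes that accompany the panel genes carry the same information in part, so this describes the grouping and does not test it.

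**Figure D3:**
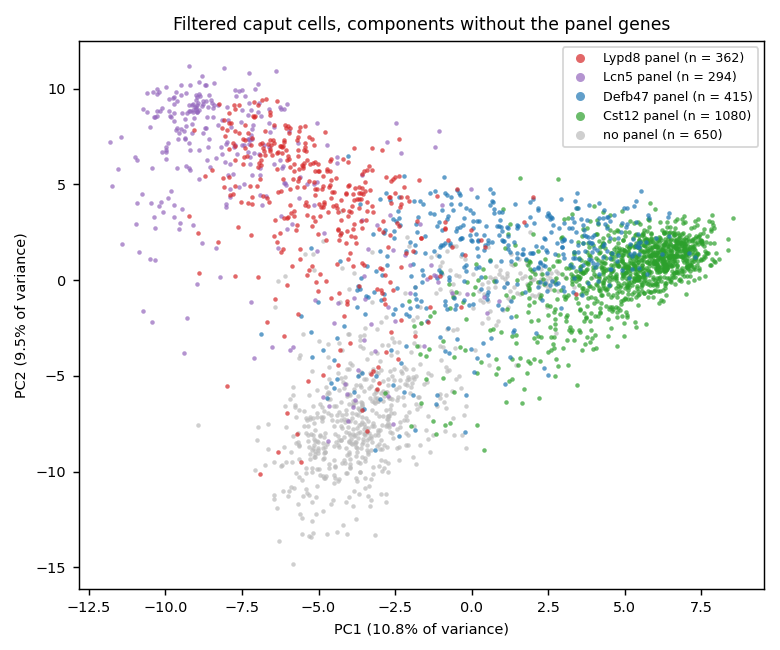
First 2 principal components of the 2801 filtered caput cells, computed without the panel genes and the genes of the cell filter; each point is a cell, coloured by panel, and the axes give the share of variance (10.8% and 9.51%). Lypd8 panel cells (median -5.12 on the first and 4.43 on the second component) lie between Lcn5 panel cells (-8.12 and 6.96) and Defb47 panel cells (0.90 and 1.55), away from Cst12 panel cells (5.47 and 0.80).

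The working name of these cells was initial-segment-like principal cells, and the genes of the initial segment did not bear it out. Of 17 genes known from the initial segment or proximal caput, 1 was higher and 14 were lower in Lypd8 panel cells than in cells of the other 3 panels together. To be called higher or lower, a gene needed a ratio of 2 or more with its interval beyond 1.5, and 100 or more UMIs in the higher group. Over all 13169 genes measured, 219 were higher (1.66%) and 431 lower (3.27%), and the median log2 ratio was 0.13, beside -2.53 for the 17. With median-of-ratios scaling, which lowers every log2 ratio by 0.21, the counts were 157 higher and 558 lower. None of the 17 had its highest level of the 4 panels in Lypd8 panel cells, whereas 12 had it in Cst12 panel cells, 4 in Lcn5 panel and 1 in Defb47 panel cells. Their summed level was 13918 CPM in Lypd8 panel cells, 53432 in Defb47 panel, 89581 in Cst12 panel and 16712 in Lcn5 panel cells, and 18572 CPM in Ptprc or Pecam1 cells. Against Cst12 panel cells alone 2 of the 17 were higher and 12 lower (median log2 ratio -2.58), against Defb47 panel cells 2 and 10 (-1.54), and against Lcn5 panel cells 1 and 2 (0.13). Over all genes, 3.27% were higher and 4.08% lower than in Cst12 panel cells. The shares were 1.77% and 1.42% for Defb47 panel and 1.64% and 1.66% for Lcn5 panel cells. These shares are the background for the lists below too. For 11 of the 17 the level in Lypd8 panel cells was at or below that in Ptprc or Pecam1 cells. These include Etv1, Etv4 and Etv5, ERK target genes for which the level in Ptprc or Pecam1 cells is not read as free RNA. The 15 principal cell markers, several of them also in the list of 17, summed to 135707 CPM in Lypd8 panel cells and 148916 CPM in the other 3 panels, against 41026 CPM in Ptprc or Pecam1 cells. Gpx5 and Spag11b gave most of that sum, while 10 of the 15 were lower, 1 was higher and the median log2 ratio was -2.19. The cells are therefore named by their panel only.

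Secreted proteins of the initial segment were the most abundant part of that list. Lcn9 was at 2107 CPM in Lypd8 panel cells and 24718 CPM in Cst12 panel cells, and Lcn8, a lipocalin beside it in the same gene cluster, at 1924 and 22611 CPM. Cst8, a cystatin-related protein, had 1218 CPM in Lypd8 panel and 13432 CPM in Cst12 panel cells, and Rnase10, a catalytically inactive ribonuclease A relative, 493 and 5427 CPM. All of these were below the free RNA level in Lypd8 panel cells, which for Lcn9 was 4536 CPM. In Lcn5 panel cells they were below it too, with Lcn9 at 1920 CPM. Cst11 and Lcn2 stood above it, with 3858 and 3781 CPM in Lypd8 panel cells, against 2450.0 and 3125 CPM in Ptprc or Pecam1 cells and 11120.0 and 10453 CPM in Cst12 panel cells. Rnase9 and Spint4 belonged to the Lcn5 panel cells, at 7483 and 981 CPM, against 277 and 8.15 CPM in Lypd8 panel cells. Ggt1, the gamma-glutamyl transferase that breaks down glutathione outside the cell, was the 1 higher gene, with 55.0 CPM in Lypd8 panel cells and 16.3 CPM in the other 3 panels together (ratio 3.39, 2.77 to 4.13), though Lcn5 panel cells had 67.9 CPM.

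The signalling side was low too. Ros1, the receptor tyrosine kinase that initial segment cells need to differentiate, was at 17.7 CPM in Lypd8 panel cells and 47.8 CPM in Cst12 panel cells, above the 8.46 CPM of free RNA. Ovch2 was at 109.7 CPM in Lypd8 panel and 1344 CPM in Cst12 panel cells, and at 222 CPM in Ptprc or Pecam1 cells. Of 13 measured genes of the NELL2 and ROS1 pathway, these 2 were lower and none was higher, with a median log2 ratio of 0.00. Nell2, the ligand made in the testis, had no UMI in Lypd8 panel cells, which allows up to 1.02 CPM at 3 counts. Of 19 measured FGF receptors and ERK target genes, 10 were lower and none higher (median log2 ratio -1.42). Ptprc or Pecam1 cells had more of several of these than any panel, such as 808 CPM of Ier3, so their level is not read as free RNA for this list. Among these, Ier3, an immediate early gene, had 57.1 CPM in Lypd8 panel cells and 206 CPM in the other 3 panels, and Phlda1 had 169.5 and 531 CPM. Etv5 had 10.2 CPM in Lypd8 panel cells and 105 CPM in the other 3 panels. Against Lcn5 panel cells alone none of the 19 was past the size rule in either direction, and the median log2 ratio was 0.20.

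**Figure D4:**
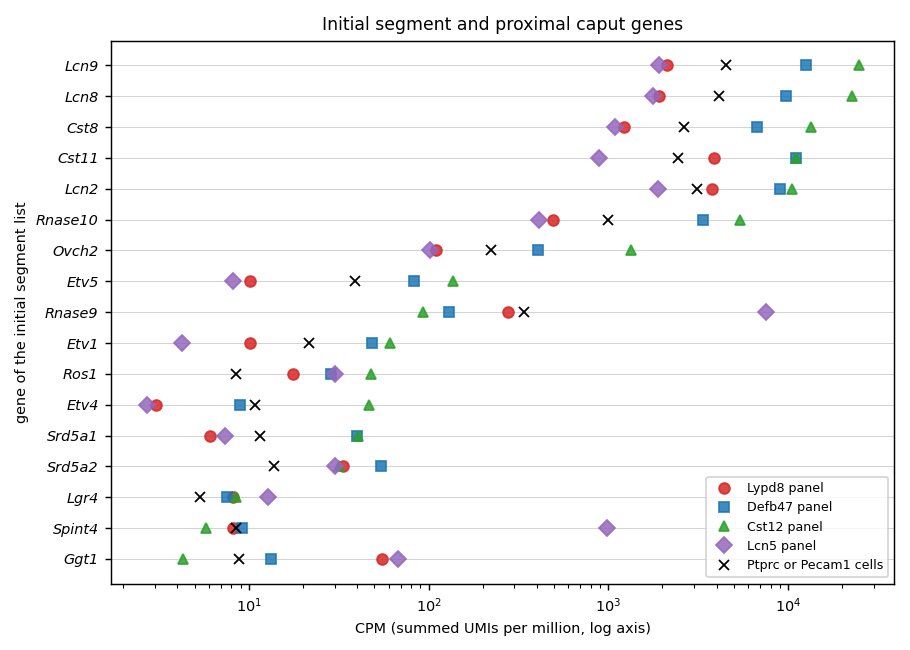
Level of the 17 genes of the initial segment list in CPM (log axis) in Lypd8, Defb47, Cst12 and Lcn5 panel cells and in Ptprc or Pecam1 cells. The last stand for free RNA, except for Etv1, Etv4 and Etv5, and may overstate it. Lypd8 panel cells lie beside Lcn5 panel cells for most genes and below Cst12 panel cells for Lcn9 (2107 against 24718 CPM) and Lcn8 (1924 against 22611 CPM). For Lcn9, Lcn8, Cst8 and Rnase10, Lypd8 panel and Lcn5 panel cells both lie below Ptprc or Pecam1 cells.

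Among secreted proteins of the caput, Gpx5 and Spag11b were the most abundant of the listed genes in Lypd8 panel cells. Gpx5 was at 65957 CPM in Lypd8 panel cells, against 60839.7 in Defb47 panel, 36937 in Cst12 panel and 17471 in Lcn5 panel cells, and 11303 CPM in Ptprc or Pecam1 cells. Spag11b, a defensin-like secreted protein, had 36649 CPM in Lypd8 panel cells, against 32995 in Defb47 panel, 16579 in Cst12 panel and 4524 in Lcn5 panel cells. The other 3 panels together had 18273 CPM (ratio 2.01, 1.99 to 2.02), and with median-of-ratios scaling the ratio was 1.73, below the size rule. Of 29 measured beta-defensins outside the panels, 5 were higher (Spag11b, Defb45, Defb12, Defb2 and Defb10) and 10 lower, with a median log2 ratio of -0.48. With median-of-ratios scaling 3 of the 5 passed, without Spag11b and Defb12. Defb12 and Defb10 were higher in Lcn5 panel cells (1690 and 175 CPM) than in Lypd8 panel cells (1107 and 70.7 CPM). The direction differed between panels, with 6 higher and 3 lower against Defb47 panel cells (median log2 ratio 0.80), 9 and 4 against Cst12 panel cells (1.14) and 4 and 12 against Lcn5 panel cells (-1.31). Defb25 was among the lower, with 1508 CPM in Lypd8 panel cells, against 9303 in Defb47 panel, 14814 in Cst12 panel and 1109 in Lcn5 panel cells. Defb20 followed the Defb47 panel, at 13821 CPM in Lypd8 panel and 36089 CPM in Defb47 panel cells, and Defb42 was alike in both sets, at 6276 CPM in Lypd8 panel cells and 6328 CPM in the other 3 panels. A pair of the higher defensins, singled out after their values were seen, differed in where else they were found. Defb45 was at 2241 CPM in Lypd8 panel cells, against 1288 in Defb47 panel, 386 in Cst12 panel and 414 in Lcn5 panel cells, whereas Defb2 was at 857 CPM in Lypd8 panel and 839 CPM in Lcn5 panel cells, against 127 and 28.2 CPM in Defb47 and Cst12 panel cells. Reads of closely related defensins may have been split between genes by the authors' counting, which makes their levels uncertain.

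Among lipocalins and protease inhibitors, levels in Lypd8 panel cells lay near those of Lcn5 panel cells for several abundant genes. Of 9 measured lipocalins 2 were higher, Lcn12, which binds retinoids, and Ptgds, the prostaglandin D synthase, and 5 were lower (Lcn2, Lcn8, Lcn9, Lcn10, Apod), with a median log2 ratio of -1.86. Against Lcn5 panel cells alone 3 lipocalins were higher and none lower (0.13). Lcn12 was at 1426 CPM in Lypd8 panel cells, against 653 in Defb47 panel, 56.3 in Cst12 panel and 617 in Lcn5 panel cells. Ptgds was at 1712 CPM in Lypd8 panel and 1780.0 CPM in Lcn5 panel cells, against 481 and 156 CPM in Defb47 and Cst12 panel cells. Of 27 measured Kazal, Kunitz and WAP domain inhibitors 9 were higher and 5 lower (median log2 ratio 0.62), and they summed to 25313 CPM in Lypd8 panel cells, 12980 in Defb47 panel, 6502 in Cst12 panel and 40979 in Lcn5 panel cells. Against Lcn5 panel cells alone 6 of the inhibitors were higher and 6 lower (median log2 ratio -0.12). Spink12, a Kazal-type inhibitor, had 2868 CPM in Lypd8 panel cells and 789 CPM in the other 3 panels (ratio 3.63, 3.54 to 3.74), with 3358 CPM in Lcn5 panel cells alone. Spink8 and Spink11 were highest in Lcn5 panel cells, with 6598 and 2546 CPM in Lypd8 panel and 16906 and 8636 CPM in Lcn5 panel cells. Of 9 measured cystatins none was higher and 3 were lower (Cst8, Cst11, Cst13; median log2 ratio -1.30, and 0.15 against Lcn5 panel cells alone, where 1 was higher), and of 7 ADAM proteases none was past the size rule, with Adam7 at 5910 CPM in Lypd8 panel and 5557 CPM in the other 3 panels.

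The 15 named genes, those with the largest ratio to the other 3 panels among genes outside the rule, ranged from 9.44 (8.31 to 10.7) for Tspan1 to 5.00 (4.15 to 6.01) for Ces1d. All 15 had their highest level of the 4 panels in Lypd8 panel cells and lay above the free RNA level, and 14 had their lowest in Cst12 panel cells. Because Cst12 panel cells hold 10261351 of the 16428498 UMIs of the other 3 panels, the pooled ratio leans on them. All 15 passed the size rule against Cst12 panel cells, 14 against Defb47 panel and 9 against Lcn5 panel cells. Against each alone the background was 394 genes higher of 12062 (3.27%) for the Cst12 panel, 185 of 10473 (1.77%) for the Defb47 panel and 170 of 10342 (1.64%) for the Lcn5 panel. Genes went into these 15 for being higher, so these counts describe the choice.

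Of the 15, Slc38a5 was the most abundant and 3 were carriers or pumps. Slc38a5, a sodium-coupled carrier of glutamine and other neutral amino acids (chrX:8271381-8280179), was at 5440.4 CPM in Lypd8 panel cells, against 2271 in Defb47 panel, 289 in Cst12 panel and 1694 in Lcn5 panel cells, a ratio of 5.77 (5.65 to 5.90) to the 3 together. It was found in 99.2% of Lypd8 panel cells and 54.2% of the others after thinning, and in 40.3% of Ptprc or Pecam1 cells (99.4%, 79.7% and 69.97% unthinned). Slc16a10, a carrier of aromatic amino acids (chr10:40033532-40142270), had 245 CPM in Lypd8 panel cells and 152 CPM in Lcn5 panel cells, against 28.7 and 7.99 CPM in Defb47 and Cst12 panel cells. Atp4a, the catalytic subunit of the proton and potassium pump of the stomach, had 229.7 CPM in Lypd8 panel, 139 in Lcn5 panel, 35.1 in Defb47 panel and 6.33 in Cst12 panel cells. For Slc16a10 and Atp4a the Lcn5 panel cells came next, as for 10 of the 15 genes, while the Defb47 panel cells came next for 5, Slc38a5 among them.

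The endocytic adaptor Dab2 and the inhibitor Spink5 passed the size rule against each of the other panels. Dab2 (chr15:6299788-6440715), which gathers cargo receptors into clathrin coats, was at 936 CPM in Lypd8 panel cells, against 251 in Defb47 panel, 78.2 in Cst12 panel and 232 in Lcn5 panel cells, and 240.3 CPM in Ptprc or Pecam1 cells. It was also at 593 CPM in caput cells without a panel and 598 CPM in cauda cells. Spink5, a multidomain Kazal inhibitor known from skin, was at 1526 CPM in Lypd8 panel cells, against 438, 104 and 673 CPM in Defb47, Cst12 and Lcn5 panel cells. Tspan1, a tetraspanin, had 225 CPM in Lypd8 panel cells, against 34.8, 7.89 and 71.7 CPM in the same order. Fam132a, which RefSeq lists as C1qtnf12 and which encodes a secreted relative of C1qtnf9, had 283 CPM in Lypd8 panel and 39.2 CPM in the other 3 panels (ratio 7.21). Mospd1, a protein of the endoplasmic reticulum, had 334 CPM, against 99.2, 48.1 and 43.8 CPM in Defb47, Cst12 and Lcn5 panel cells. The carcinoembryonic antigen relative Ceacam10 was shared with the Defb47 panel (1217 CPM in Lypd8 panel, 654 CPM in Defb47 panel cells), and the colipase-like Lrcol1 and the microtubule protein Map1b with the Lcn5 panel (719 and 581 CPM in Lypd8 panel, 571 and 325 CPM in Lcn5 panel cells). Wfdc16, a WAP domain inhibitor at 84.3 CPM in Lypd8 panel cells, was far higher beyond the caput, at 1179.9 CPM in corpus and 718 CPM in cauda cells. Erc2, a scaffold of the presynapse, and Ces1d, a carboxylesterase, completed the 15 at 67.6 and 75.8 CPM. Ces1d was higher outside the panels, at 109 CPM in caput cells without a panel, 374 CPM in corpus and 349 CPM in cauda cells. Ceacam10 was also found beyond the caput, at 522 CPM in corpus and 369 CPM in cauda cells. Spink5 and Lcn12 were at 53.2 and 110 CPM in corpus and 371 and 317 CPM in cauda cells.

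**Figure D5:**
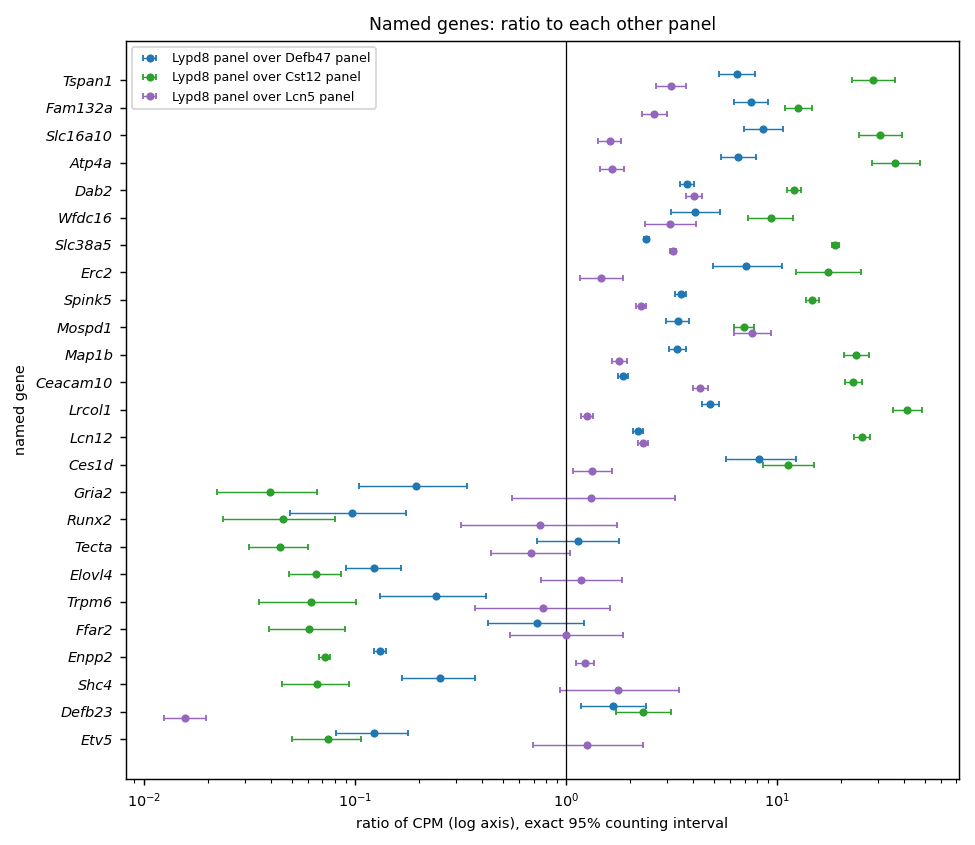
Ratio of CPM in Lypd8 panel cells over Defb47, Cst12 and Lcn5 panel cells (log axis) for the 15 named higher and 10 named lower genes, with exact 95% intervals that cover counting error only. The 15 upper genes lie right of 1 against all 3 panels, while most of the 10 lower genes lie far left of 1 against the Cst12 panel and near 1 against the Lcn5 panel, and Defb23 lies far left of 1 against the Lcn5 panel.

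The 10 named lower genes were genes of the Cst12 panel cells. Of these, 9 had their highest level there and Defb23 had it in Lcn5 panel cells (1692 CPM, against 26.5 CPM in Lypd8 panel cells). In Lypd8 panel cells all 10 were at or below the level of Ptprc or Pecam1 cells, which is not read as free RNA for Etv5. Enpp2, the secreted enzyme autotaxin, was at 348 CPM in Lypd8 panel cells and 3659 CPM in the other 3 panels, which were 10.5 times higher (9.90 to 11.2). Gria2, a glutamate receptor subunit, was at 5.10 and 86.7 CPM, Runx2, a transcription factor, at 4.08 and 65.7 CPM, and Elovl4, an elongase of very long chain fatty acids, at 17.3 and 199 CPM, in the same order. The other named lower genes were Tecta, Trpm6, Ffar2, Shc4 and Etv5, with levels 10.3 to 14.6 times higher in the other 3 panels. The size rule held for 9 of the 10 against Cst12 panel cells, for 5 against Defb47 panel and for 1 against Lcn5 panel cells, beside backgrounds of 4.08%, 1.42% and 1.66% of genes lower.

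Of the 13169 genes measured, leaving out the genes of the rule, 31 were higher and 1 was lower by the size rule against each of the other 3 panels. The 31 included 3 known only by a clone name and 8 of the 15 named genes. The 1 lower gene, Crisp4, a cysteine-rich secretory protein that binds sperm, was singled out after its values were seen. It was at 153 CPM in Lypd8 panel cells, against 360 in Defb47 panel, 921 in Cst12 panel and 497 in Lcn5 panel cells, with 174 CPM in Ptprc or Pecam1 cells. Across 13169 genes the summed levels correlated with those of Defb47 panel cells at r = 0.95, of Lcn5 panel cells at 0.94 and of Cst12 panel cells at 0.91 (log10 of CPM + 1), across genes that are not independent.

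Of 26 measured factors of the epididymal epithelium, the epithelial ETS factors Ehf (376 CPM in Lypd8 panel cells and 164 CPM in the other 3 panels, ratio 2.30) and Elf3 (120.3 and 46.4 CPM, ratio 2.59) were higher, and Runx1, Pax8 and Cebpb were lower, beside 1.66% and 3.27% of all genes, with a median log2 ratio of 0.03. With median-of-ratios scaling Ehf had a ratio of 1.98 and did not pass. Lcn5 panel cells alone had 302 CPM of Ehf and 64.4 CPM of Elf3. Of 19 steroid genes, only Srd5a1, a 5-alpha reductase, passed the rule, with 6.12 CPM in Lypd8 panel and 35.4 CPM in the other 3 panels.

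In other functional groups single members differed and most were not past the rule. Of 29 measured genes of glutathione handling 6 were higher (Gstm7, Gstm1, Gpx3, Gstm5, Gsta3, Ggt1) and Ggt7 was lower, with a median log2 ratio of 0.55. With median-of-ratios scaling 3 of the 6 passed, without Gstm7, Gstm1 and Gpx3. Only Gsta3 of the 6 was higher in Lypd8 panel than in Lcn5 panel cells (90.4 and 52.7 CPM). In the same order of groups, Gpx3 had 319 and 648 CPM and Gstm7 669.6 and 872 CPM. Gstm1 had 361 and 515 CPM, Gstm5 181 and 197 CPM, and Ggt1 55.0 and 67.9 CPM. Clu, the secreted chaperone clusterin, was at 9280.1 CPM in Lypd8 panel cells and 11398 CPM in Lcn5 panel cells, against 1379 and 641 CPM in Defb47 and Cst12 panel cells. Among 21 tight junction genes Cdh16, a kidney-type cadherin, was higher (111 and 28.7 CPM) and Cldn10 (91.0 and 296 CPM) and Cldn1 were lower than in the other 3 panels. Lcn5 panel cells alone had 97.3 CPM of Cdh16 and 27.5 CPM of Cldn10. Among 21 genes of water, ion and bicarbonate transport the chloride channel Ano1 was higher (112 and 39.0 CPM), and 4 were lower, Car2, Aqp9 and Cftr among them. None of 17 endoplasmic reticulum chaperones, 78 nuclear genes of the respiratory chain or 18 glycolytic genes was past the rule, and 1 of 83 ribosomal protein genes was (Rpl3l, lower). In further lists no gene was higher and a few were lower than in the other 3 panels together. These were Serpina16 of 14 serpins, Lss of 19 cholesterol synthesis genes, and Vip and Inhbb of 13 peptide hormone genes. Ly6g5c and Pate2 of 11 Ly6 and Pate genes, and Rnase9 and Rnase10 of 8 ribonuclease A relatives, were lower too. Serpina16, Pate2 and Rnase9 were highest in Lcn5 panel cells (193, 117 and 7483 CPM). Their 8.49, 4.42 and 277 CPM in Lypd8 panel cells exceeded Defb47 panel (1.67, 1.11, 129) and Cst12 panel cells (1.46, 1.75, 93.2). The other genes named here were highest in Cst12 or Defb47 panel cells.

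Markers of other cell types were mostly as low as in the other panels. The cell filter capped Krt5, Foxi1, Ptprc, Pecam1 and Dcn in all panel cells, and Ptprc or Pecam1 chose the comparison cells. Filter genes were not taken out of the marker lists, so low and high sums follow in part from that choice. Summed levels of 8 endothelial markers were 50.6 CPM in Lypd8 panel cells, 52.5 in the other 3 panels and 3174 in Ptprc or Pecam1 cells. Macrophage markers summed to 118, 104 and 1081 CPM, fibroblast markers to 136, 176 and 1362 CPM, smooth muscle markers to 128, 89.8 and 1419 CPM and basal markers to 118, 109 and 557 CPM, in the same order. Germ cell transcripts summed to 22.4 CPM in Lypd8 panel cells and 39.8 CPM in the other 3 panels, with Odf1, Akap4 and Hmgb4 at 0, and Cd3d and Gzma of the T and NK list were at 0 as well. The median over Lypd8 panel cells was 0 per 10000 UMIs for basal, ciliated, smooth muscle, endothelial, macrophage, T or NK, neutrophil and germ lists, 0.712 for fibroblast, 1.77 for clear cell and 16.2 for erythroid markers, and 1402 for 15 principal cell markers. Erythroid markers summed to 5290.3 CPM in Lypd8 panel cells, 5405 CPM in the other 3 panels and 8595 CPM in Ptprc or Pecam1 cells, and took 5794 of 10000 UMIs in 1 Lypd8 panel cell. Clear cell markers summed to 259.9 CPM in Lypd8 panel cells and 197 CPM in the other 3 panels. Foxi1, of which the filter let at most 2 UMIs through, was at 35.0 and 12.3 CPM. It was higher by the size rule (ratio 2.85, 2.22 to 3.63). No UMI of the filter genes was found in 41.4% of Lypd8 panel cells and 55.8% of cells of the other 3 panels. Immediate early and dissociation stress genes summed to 7367 CPM in Lypd8 panel cells, 7360 CPM in the other 3 panels and 26067 CPM in Ptprc or Pecam1 cells. The part of such transcripts in the differences was not tested.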

How the data were processed

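RNA was measured in single cells of caput, corpus and cauda with the Singleron GEXSCOPE kit, 1 library each, per the labels. The authors deposited raw UMI counts per cell, with no normalization, for 24335 gene symbols and 14845 cells (1 table for the 3 libraries). Per the submitters' processing notes, STAR 2.7.3a, UMI-tools and the build GRCm38.p6 were used. The version of UMI-tools and the way cells were called are not given in the sources used here. Of the symbols, 16858 matched a RefSeq gene.

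UMIs were summed over the cells of a group and given as CPM, with exact Poisson 95% intervals. Ratios had exact conditional binomial intervals and shares Clopper-Pearson intervals. All cover counting error only, and UMIs of 1 cell are not independent of each other. Genes with at least 20 UMIs in the 2 groups compared were measured. The size rule asked for a ratio of at least 2, an interval beyond 1.5 and 100 UMIs in the higher group. No test was made, and the calculation was checked on simulated data.

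Named genes were the 15 with the largest ratio higher and the 10 lower in Lypd8 panel cells among genes past the size rule, with a UMI in at least 10% of the thinned cells of the higher group, outside panels and cell filter and not clone-named. The genes of the panel and of the initial segment and ROS1 lists, up to 4 genes of each other list by summed UMIs, and the members past the rule of a list with up to 8 of these were named too. Cells, panels and the 40 gene lists were chosen with earlier results of these data known. Neighbours came from 30 components of 2000 variable genes. Scrublet called 2 of 4961 caput cells at its threshold of 0.446, too few to have worked, so no doublet was removed. Python 3.11.15, numpy 2.4.6, scipy 1.17.1, pandas 2.3.3, scikit-learn 1.9.0, scanpy 1.11.5 and matplotlib 3.10.9 were used. Some genes of the lists are not reported here.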

Additional observations from a re-analysis of the deposited data

How the results depend on the processing

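With 1 library per region, no comparison has a replicate check, panel cells were chosen on measured counts, and depth limits genes under about 100 UMIs in the cells. Counts of cells and genes were recomputed under 18 alternatives, of which at least 10 panel UMIs in a Lypd8 panel cell was chosen after seeing the data. The number of Lypd8 panel cells (362) was 150 where cells with any UMI of the 5 filter genes were left out, and 284 to 390 otherwise. The number of higher genes (219) was 126 with equal weight of the 3 panels, 122 without any UMI of the filter genes, 702 with no minimum of UMIs, 48 at a ratio of at least 4 and 65 with every cell thinned to 2000 UMIs, and the number of lower genes (431) was 242 at a ratio of at least 4 and 185 after thinning. Fewer UMIs or cells enter under thinning and the stricter cell filter. In the other alternatives higher genes numbered 157 to 226 and lower genes 356 to 558. Median-of-ratios scaling lowers every log2 ratio by 0.21 and turns 219 higher and 431 lower genes into 157 and 558, and all 157 were among the 219. Without Lypd8 in the panel, 172 of 207 higher genes were among the 219. Of 450 ratios of named genes recomputed, none reversed, and 6 (Ces1d, Erc2 and Wfdc16 without any UMI of the filter genes and after thinning) fell below the size rule by having under 100 UMIs, with ratios of 3.90 to 9.25. No paired analysis was possible because each region has 1 library and the labels give no replicate numbers to pair.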

Other observations

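Transcripts named only by a genomic clone were kept out of the named genes, and 3 of them had large ratios in Lypd8 panel cells. RP23-291B23.2 was the most abundant of these, at 7078 CPM in Lypd8 panel cells, against 1780.4 in Defb47 panel, 143 in Cst12 panel and 1743 in Lcn5 panel cells, and 456 CPM in Ptprc or Pecam1 cells. Its ratio to the other 3 panels together was 9.41 (9.20 to 9.62), close to that of Tspan1, and it was found in 98.9% of Lypd8 panel cells and 44.2% of the others after thinning, and in 31.0% of Ptprc or Pecam1 cells (99.4%, 69.4% and 63.0% unthinned). In cauda cells it stood at 676 CPM, and in corpus cells at 36.6 CPM. RP24-399L6.1 was shared with the Lcn5 panel, at 2758 CPM in Lypd8 panel and 2842 CPM in Lcn5 panel cells, against 284 and 74.8 CPM in Defb47 and Cst12 panel cells. RP24-175N4.1 had 88.3 CPM in Lypd8 panel and 21.1 CPM in the other 3 panels. The gene table used here gave none of the 3 a gene name.

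Cd68, a lysosomal glycoprotein best known from macrophages, was among the 31 genes higher than in each of the other panels, and was singled out after its values were seen. It was at 37.0 CPM in Lypd8 panel cells, against 7.52 in Defb47 panel, 6.63 in Cst12 panel and 8.92 in Lcn5 panel cells, and at 50.4 CPM in Ptprc or Pecam1 cells. The summed macrophage markers were at 118 CPM in Lypd8 panel cells and 104 CPM in the other 3 panels.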
